A study of Mus musculus with 36 samples.

Results

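The genes of the renin-angiotensin system described here are 9 of the 38887 Ensembl genes of the count table, found by their identifiers: the precursor *Agt*, the peptidases *Ace*, *Enpep* and *Lnpep*, the receptors *Agtr1a*, *Agtr1b*, *Agtr2* and *Mas1*, and *Atp6ap2*, the (pro)renin receptor. RNA was sequenced from a pair of populations of the bone marrow (BM), sorted at 5000 cells per sample: LT-HSC, the long-term hematopoietic stem cells, and HPC-1, progenitors further along in differentiation that the labels name ST-HSC. Both lack lineage markers and carry Sca-1 and c-Kit; LT-HSC were gated as CD150-positive and CD48-negative, HPC-1 as CD150-negative and CD48-positive. All mice were C57BL/6 animals lacking apolipoprotein E (*Apoe*-/-), received Western diet for 12 weeks from 8 weeks of age, and carried osmotic mini-pumps for the last 2 weeks, filled with PBS or with angiotensin II (Ang II) at a dose of 800 ng per kg each minute. The gene of the IL-27 receptor, *Il27ra*, was intact, heterozygous or deficient, so the genotypes were *Apoe*-/-, *Apoe*-/-*Il27ra*+/- and *Apoe*-/-*Il27ra*-/-, called *Il27ra*-intact, *Il27ra*+/- and *Il27ra*-/- from here on. In LT-HSC, the PBS groups held 1, 3 and 3 libraries of these genotypes and the Ang II groups held 2, 4 and 4. In HPC-1, there were 2, 3 and 3 libraries after PBS and 3, 4 and 4 after Ang II. The paper's legends count 2, 4 and 3 mice of these genotypes. For the first this is fewer than the 3 Ang II *Il27ra*-intact libraries of HPC-1, and for the last fewer than the 4 Ang II *Il27ra*-/- libraries of each population. The labels do not say which samples came from separate mice, so p-values measure the spread between these samples. The values are RSEM expected counts, with totals from 1980283 to 6861078 per library (median 3139364). LT-HSC libraries held 2560838 counts at the median and HPC-1 libraries 3254832, and the 3 LT-HSC libraries labelled *Il27ra*-intact lay near the low end, at 1980283, 2077699 and 2244419. Levels are given as counts or as CPM, counts per M (mega) counts of the library, normalized by TMM over the 36 libraries. A library with 3 counts or fewer of a gene is at or under the limit of detection, which covers counting error only.

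In the renin-angiotensin system, renin cuts angiotensinogen to angiotensin I, which the angiotensin converting enzyme turns into Ang II. Ang II acts through the type 1 receptor, which mice encode in a pair of genes, and through the type 2 receptor, and aminopeptidases shorten it to smaller peptides. Angiotensinogen and renin come mainly from liver and kidney and reach BM through blood, whereas receptors and membrane-bound peptidases act on the cell that carries them.

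*Il27ra* (ENSMUSG00000005465) was read in every library first, as a check of the labels. In LT-HSC after Ang II, it stood at 42.69 and 51.65 CPM in *Il27ra*-intact, at 30.06, 25.18, 27.0 and 33.0 in *Il27ra*+/- and at 16.16, 11.52, 16.21 and 19.43 in *Il27ra*-/- libraries. After PBS, LT-HSC had 42.58, 23.36 and 25.66 CPM in *Il27ra*+/- and 9.33, 7.01 and 16.51 in *Il27ra*-/- libraries. The library labelled PBS *Il27ra*-intact LT-HSC had 17.09 CPM, within the range of the *Il27ra*-/- libraries, so its label is not borne out by this gene, although it shared the high intestinal epithelium marker sums of the other LT-HSC libraries labelled *Il27ra*-intact, given with *Atp6ap2* below. In HPC-1 after PBS, *Il27ra* was at 8.23 and 11.86 CPM in *Il27ra*-intact, 15.53, 11.06 and 9.99 in *Il27ra*+/- and 6.7, 11.08 and 8.34 in *Il27ra*-/- libraries. After Ang II, HPC-1 had 10.18, 8.87 and 6.06 CPM in *Il27ra*-intact, 5.45, 9.56, 14.34 and 16.59 in *Il27ra*+/- and 6.64, 5.91, 4.64 and 9.07 in *Il27ra*-/- libraries. The genotypes thus overlapped in HPC-1, and the labels could not be checked there with this gene.

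The sorted populations were checked with marker genes. All 12 HSC markers were higher in LT-HSC than in HPC-1 and all 8 multipotent progenitor markers were lower by edgeR at an adjusted p under 0.05, beside 35.7% of all genes called. The genes encoding CD150 and CD48, on which the cells were gated, are among these markers, so part of this follows from the sort. Of the 12 HSC markers, 11 passed the filter on low counts among HPC-1 libraries alone. A pair of LT-HSC libraries stood apart from the others in HSC markers. The library labelled PBS *Il27ra*-/- LT-HSC replicate 2 had a summed HSC marker level of 709 CPM, inside the HPC-1 range of 535 to 844, and a progenitor marker sum of 2140 CPM, inside the HPC-1 range of 1200 to 2810. The library labelled Ang II *Il27ra*-/- LT-HSC replicate 2 had 1640 CPM of HSC markers, below the 2130 to 3130 of the remaining LT-HSC libraries, and 8780 CPM of granulocyte markers, led by *S100a9*. PBS *Il27ra*-/- LT-HSC replicate 3, at 2610 CPM of HSC markers, was not apart in these but had 1490 CPM of granulocyte markers, led by *Ngp*, and the highest erythroid marker sum of all 36 libraries. Members' main differences between LT-HSC and HPC-1 are also given without the pair, a choice made after seeing the data, and other values include all libraries unless stated.

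The 9 genes fell into a pair found in every library and 7 that were rarely above the limit. *Lnpep* and *Atp6ap2* exceeded 3 counts in 36 of 36 libraries. *Agtr1a* was at or below 3 counts in 25 libraries, *Ace* and *Enpep* in 28 each, *Agtr2* in 33, *Mas1* in 34, *Agtr1b* in 35 and *Agt* in 36. Per kb of exon sequence, which permits levels to be compared between genes, mean levels over all libraries were 14.2 CPM per kb for *Lnpep* and 10.4 for *Atp6ap2*. *Agtr1a* followed at 0.353 CPM per kb, *Ace* at 0.149 and *Enpep* at 0.126. The lowest were *Mas1* at 0.073, *Agtr2* at 0.0673, *Agtr1b* at 0.0493 and *Agt* at 0.0163 CPM per kb. The order among *Ace* and *Enpep*, and among the last 4, lies within the spread between libraries and close to the limit. Among receptors that bind Ang II, *Agtr1a* had the highest mean in LT-HSC, at 0.71 CPM per kb, and *Agtr2* in HPC-1, at 0.12, each more than an order of magnitude below the aminopeptidase *Lnpep* there (13.7 and 14.7). The place of *Agtr2* in HPC-1 came from PBS libraries, at 0.274 CPM per kb. After Ang II it was at 0.00793 there, below *Agtr1a* at 0.0382 and *Agtr1b* at 0.0123.

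*Agt* (ENSMUSG00000031980, mm10 chromosome 8, 124556534 to 124569706, minus strand) encodes angiotensinogen, from which all angiotensin peptides are cut. It had 5 counts in the whole series, all in PBS LT-HSC: 2 each in *Il27ra*+/- replicates 2 and 3 and 1 in *Il27ra*-/- replicate 3. No HPC-1 library held a count of *Agt*, and no library of either population passed the limit.

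*Ace* (ENSMUSG00000020681, chromosome 11, 105967945 to 105989964, plus strand) encodes the enzyme that makes Ang II and also degrades other peptides. In LT-HSC after PBS, it had 0 counts in the library labelled *Il27ra*-intact, 0, 5 and 8 in *Il27ra*+/- and 7, 7 and 63 in *Il27ra*-/-. After Ang II, LT-HSC had 0 and 0 counts in *Il27ra*-intact, 0, 7, 5 and 0 in *Il27ra*+/- and 2, 16, 0 and 0 in *Il27ra*-/-. Its 63 counts in PBS *Il27ra*-/- replicate 3 were 9.12 CPM, and the 16 counts in Ang II *Il27ra*-/- replicate 2 were 6.83 CPM, while no other LT-HSC library exceeded 2.97. These 2 libraries also had the highest summed erythroid markers of all 36, 3110 and 2830 CPM, led by *Hba-a2*, and granulocyte marker sums of 1490 and 8780 CPM against 29.5 to 128 in LT-HSC other than these and PBS *Il27ra*-/- replicate 2 (4040). None of the 9 erythroid and 10 granulocyte markers was at 0 in either library; the lineage antibodies of the sort, which include Ter119, Gr1 and CD11b, serve to remove such cells, and their part in the *Ace* level was not tested. Endothelium, a main site of this enzyme, gave marker sums of 248 and 137 CPM in the same 2 libraries, within the LT-HSC range of 117 to 314 (*Tie1* highest, with none of 10 markers at 0 in the first and *Cdh5* and *Stab2* at 0 in the second). HPC-1 had 5 *Ace* counts in 19 libraries, 2 of them in PBS *Il27ra*-/- replicate 3, 1 in Ang II *Il27ra*-intact replicate 1 and 2 in Ang II *Il27ra*-/- replicate 4. *Ace* overlaps the antisense gene Gm11651, which had 0 to 6 counts per library.

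*Enpep* (ENSMUSG00000028024, chromosome 3, 129269175 to 129332720, minus strand) encodes aminopeptidase A, which converts Ang II to angiotensin III. In LT-HSC after PBS, it had 6 counts in the library labelled *Il27ra*-intact, 2, 2 and 6 in *Il27ra*+/- and 2, 1 and 3 in *Il27ra*-/-. After Ang II, the counts were 0 and 3 in *Il27ra*-intact, 2, 0, 13 and 13 in *Il27ra*+/- and 0, 0, 11 and 13 in *Il27ra*-/- LT-HSC. The 4 libraries with 11 or 13 counts were replicates 3 and 4 of both genotypes and also deep ones, and in CPM they ranged from 1.74 to 2.72, below the 2.85 CPM of the library labelled PBS *Il27ra*-intact. In HPC-1 it passed the limit in PBS *Il27ra*+/- replicate 3 with 5 counts and in PBS *Il27ra*-/- replicate 3 with 4, and 6 counts were spread over the other 17 libraries.

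*Lnpep* (ENSMUSG00000023845, chromosome 17, 17521410 to 17625050, minus strand) encodes insulin-regulated aminopeptidase, which binds angiotensin IV and cycles between vesicles and the cell surface. Its 300 to 1318 counts per library made it the best measured of the 9. In LT-HSC after PBS, it was at 214.54 CPM in the library labelled *Il27ra*-intact, at 216.26, 161.07 and 209.23 in *Il27ra*+/- and at 238.0, 196.61 and 187.39 in *Il27ra*-/-. After Ang II, LT-HSC had 143.89 and 214.04 CPM in *Il27ra*-intact, 231.12, 196.23, 190.25 and 148.98 in *Il27ra*+/- and 197.57, 211.64, 184.86 and 160.74 in *Il27ra*-/-. The ranges of the groups with more than 1 library overlapped. The library labelled PBS *Il27ra*-intact, at 214.54 CPM, lay above the highest Ang II *Il27ra*-intact (214.04) and Ang II *Il27ra*-/- (211.64) libraries and within the other groups. The LT-HSC mean was 194 ± 27.5 CPM (SD, n = 17). In HPC-1 after PBS, the values were 235.28 and 185.94 CPM in *Il27ra*-intact, 211.51, 207.15 and 178.17 in *Il27ra*+/- and 227.7, 188.42 and 187.91 in *Il27ra*-/-. After Ang II, HPC-1 had 256.95, 232.72 and 161.34 CPM in *Il27ra*-intact, 212.36, 188.09, 243.77 and 194.15 in *Il27ra*+/- and 219.28, 220.76, 204.21 and 190.54 in *Il27ra*-/-. The HPC-1 mean of 208 ± 24.7 CPM (SD, n = 19) lay within 1 SD of the LT-HSC mean.

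*Agtr1a* (ENSMUSG00000049115, chromosome 13, 30336441 to 30382867, plus strand) encodes the main type 1 receptor of Ang II in the mouse, coupled to Gq. In LT-HSC after PBS, it had 4 counts in the library labelled *Il27ra*-intact, 0, 12 and 21 in *Il27ra*+/- and 8, 0 and 10 in *Il27ra*-/-. After Ang II, LT-HSC had 0 and 0 counts in *Il27ra*-intact, 0, 9, 24 and 1 in *Il27ra*+/- and 8, 9, 12 and 13 in *Il27ra*-/-. It thus passed the limit in 11 of 17 LT-HSC libraries, under every genotype label, and in all 4 of Ang II *Il27ra*-/-. In CPM these 4 were even, at 2.94, 3.84, 2.46 and 1.8, whereas Ang II *Il27ra*+/- ranged from 0 to 5.02 CPM. Among the deepest LT-HSC libraries, *Agtr1a* had 0 counts in PBS *Il27ra*-/- replicate 2, the LT-HSC library with the HPC-1 marker levels, and 1 in Ang II *Il27ra*+/- replicate 4. In HPC-1 it had 8 counts in all and passed the limit in 0 of 19 libraries, with 2 counts in PBS *Il27ra*+/- replicate 3, 1 in PBS *Il27ra*-/- replicate 3 and 1, 0, 1 and 3 in Ang II *Il27ra*-/-.

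*Agtr1b* (ENSMUSG00000054988, chromosome 3, 20314473 to 20367177, minus strand) encodes the second type 1 receptor of rodents. It passed the limit in 1 library, PBS *Il27ra*+/- LT-HSC replicate 2, with 8 counts (2.46 CPM). Its other 7 counts were 2 in PBS *Il27ra*+/- replicate 3 and 1 each in PBS *Il27ra*-/- replicates 2 and 3 of LT-HSC, and 1 each in PBS *Il27ra*+/- replicate 3, PBS *Il27ra*-/- replicate 3 and Ang II *Il27ra*-/- replicate 3 of HPC-1. The coding sequences of *Agtr1a* and *Agtr1b*, both 1080 bases long, are identical at 981 positions (90.8%), so counts of the pair could in part be exchanged between them and are uncertain to that degree. None of the 1006 windows of 75 bases in the *Agtr1a* coding sequence occurs in that of *Agtr1b*. The longest stretch they share has 66 bases and lies at positions 75 to 140 of both, counted from the A of the start codon; it is shown, all in capitals because every base is shared, as the place where the genes are hardest to tell apart, from the GENCODE transcripts of mm10.
Agtr1a and Agtr1b, coding positions 75 to 140: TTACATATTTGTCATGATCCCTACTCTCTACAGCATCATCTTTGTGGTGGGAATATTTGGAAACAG

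*Agtr2* (ENSMUSG00000068122, chromosome X, 21484544 to 21489164, plus strand) encodes the type 2 receptor, known from fetal tissues and often acting against the type 1 receptor. Most of its counts were in HPC-1, where 16 of 19 libraries were still at or below the limit. In HPC-1 after PBS it had 0 and 0 counts in *Il27ra*-intact, 0, 6 and 2 in *Il27ra*+/- and 1, 10 and 7 in *Il27ra*-/-. After Ang II, 1 count in *Il27ra*-/- replicate 3 was all that 11 HPC-1 libraries held. LT-HSC had 2 counts in 17 libraries, 1 each in PBS *Il27ra*+/- replicates 2 and 3. The 3 HPC-1 libraries over the limit, *Il27ra*+/- replicate 2 and *Il27ra*-/- replicates 2 and 3, reached 1.95, 3.08 and 1.54 CPM.

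*Mas1* (ENSMUSG00000068037, chromosome 17, 12841079 to 12868143, minus strand) encodes the receptor of angiotensin 1-7. It passed the limit in PBS *Il27ra*+/- LT-HSC replicate 2 with 4 counts and in Ang II *Il27ra*-/- HPC-1 replicate 4 with 5. LT-HSC had 15 counts in 17 libraries, 11 of them after PBS, and HPC-1 had 9 counts in 19. *Mas1* overlaps the noncoding gene *Airn* on the opposite strand, which had 1 to 56 counts in LT-HSC and 0 to 16 in HPC-1, and the few *Mas1* counts could hold some of its reads if strand was not used in counting, which the sources used here do not state.

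**Figure D1:**
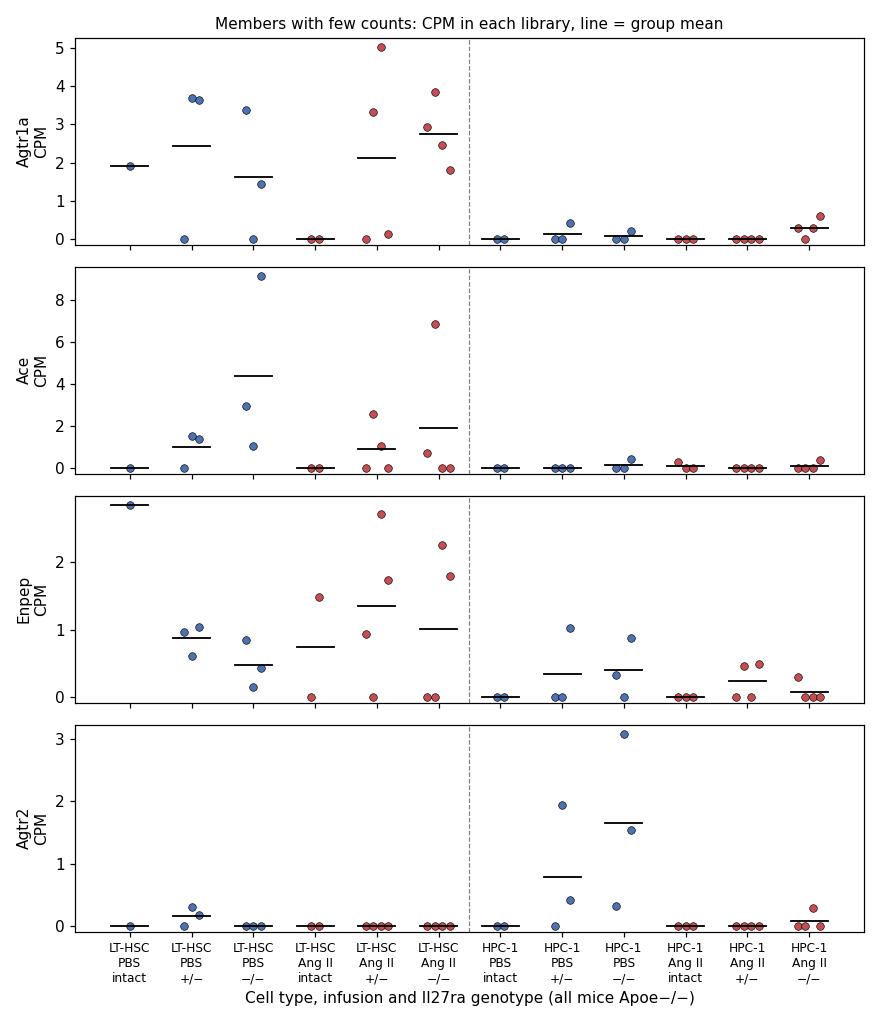
CPM of *Agtr1a*, *Ace*, *Enpep* and *Agtr2* (vertical axes) in each of the 36 libraries by cell type, agent and genotype (horizontal axis), with blue points for PBS, red points for Ang II, a black line for the group mean and a dashed line between LT-HSC and HPC-1. *Agtr1a*, *Ace* and *Enpep* lie mostly on the LT-HSC side, where *Ace* peaks at 9.12 CPM in 1 PBS *Il27ra*-/- library, while *Agtr2* lies mostly in PBS HPC-1, up to 3.08 CPM.

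*Atp6ap2* (ENSMUSG00000031007, chromosome X, 12587801 to 12617049, plus strand) encodes a membrane protein that binds renin and prorenin and is an accessory subunit of the vacuolar proton pump, the V-ATPase. In LT-HSC after PBS, it was at 9.97 CPM in the library labelled *Il27ra*-intact, at 23.22, 22.44 and 29.47 in *Il27ra*+/- and at 20.36, 32.37 and 26.79 in *Il27ra*-/-. After Ang II, LT-HSC had 11.03 and 12.91 CPM in *Il27ra*-intact, 16.91, 15.18, 26.58 and 20.18 in *Il27ra*+/- and 22.4, 32.0, 26.26 and 19.71 in *Il27ra*-/-. The 3 LT-HSC libraries labelled *Il27ra*-intact, with 21 to 26 counts each, thus lay below all 14 others of LT-HSC, which began at 15.18 CPM. In HPC-1 after PBS, the values were 30.98 and 40.47 CPM in *Il27ra*-intact, 24.13, 35.77 and 32.82 in *Il27ra*+/- and 22.64, 30.48 and 35.34 in *Il27ra*-/-. After Ang II, HPC-1 had 32.64, 37.36 and 28.55 CPM in *Il27ra*-intact, 11.8, 25.05, 22.6 and 32.68 in *Il27ra*+/- and 47.03, 43.46, 53.37 and 24.66 in *Il27ra*-/-. In HPC-1 the *Il27ra*-intact libraries lay among the others, and the highest 3 values of the series were Ang II *Il27ra*-/- replicates 1, 2 and 3. The only other LT-HSC libraries with totals below the highest of those labelled *Il27ra*-intact, PBS *Il27ra*+/- replicate 1, PBS *Il27ra*-/- replicate 1 and Ang II *Il27ra*+/- replicate 1 (2191163, 2170180 and 2183648 counts), had 23.22, 20.36 and 16.91 CPM of *Atp6ap2*. The 3 LT-HSC libraries labelled *Il27ra*-intact also had the highest intestinal epithelium marker sums of LT-HSC, at 347, 544 and 562 CPM against 36.1 to 127 (over these 3 libraries *Dmbt1* was highest, and *Fabp1*, *Phgr1*, *Alpi* and *Mep1a* of the 24 markers were at 0), and the part of such cells in the *Atp6ap2* level was not tested. In HPC-1 these sums were 111 and 91.7 CPM after PBS and 127, 115 and 336 after Ang II in *Il27ra*-intact libraries, against 29.2 to 94 in the other 14, and the library at 336 had 28.55 CPM of *Atp6ap2*.

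**Figure D2:**
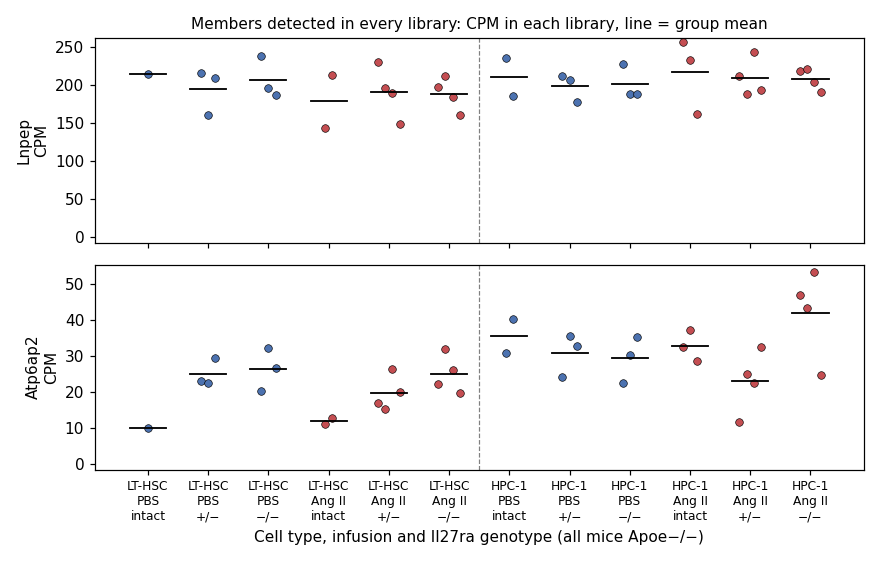
CPM of *Lnpep* and *Atp6ap2* (vertical axes) in each of the 36 libraries by cell type, agent and genotype (horizontal axis), with blue points for PBS, red points for Ang II, a black line for the group mean and a dashed line between LT-HSC and HPC-1. *Lnpep* lies between 143.89 and 256.95 CPM in all groups, and *Atp6ap2* is lowest in the LT-HSC libraries labelled *Il27ra*-intact (9.97, 11.03 and 12.91 CPM) apart from 1 HPC-1 library at 11.8.

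The comparison of LT-HSC with HPC-1 asked whether these genes differ between stem cells and the more differentiated progenitors. Mean *Agtr1a* was 1.98 ± 1.71 CPM (SD, n = 17) in LT-HSC and 0.0946 ± 0.177 CPM (n = 19) in HPC-1, a ratio of 20.9 that rests on 131 and 8 counts. *Ace* averaged 1.6 ± 2.61 CPM in LT-HSC and 0.0596 ± 0.143 in HPC-1, a ratio of 26.9 from 120 and 5 counts, and passed the limit in 8 of 17 and 0 of 19 libraries. *Enpep* averaged 1.05 ± 0.954 and 0.181 ± 0.318 CPM, a ratio of 5.79 from 77 and 15 counts. All 3 were therefore found mainly in LT-HSC, although many LT-HSC libraries held none and the populations overlapped at 0. In sorted cells measured in bulk, fewer cells carrying a transcript and less RNA per cell cannot be told apart. Without the pair of LT-HSC libraries that stood apart, the ratios were 21.0 for *Agtr1a*, 21.7 for *Ace* and 6.5 for *Enpep*. Without the pair highest in *Ace* and in erythroid markers instead, the ratio of *Ace* was 12.6, from 41 and 5 counts, and that of *Enpep* was 6.4. Endothelium marker sums were also higher in LT-HSC, at 117 to 314 CPM against 43.1 to 111 in HPC-1. Of 10 endothelium markers edgeR called 5 higher and 1 lower in LT-HSC, and of 9 erythroid markers 1 higher and 0 lower, beside 35.7% of all genes. Of the erythroid markers, 5 had an unadjusted p under 0.05 by edgeR. The additive model described below, which gave the estimate for *Ace*, called 6 endothelium markers higher and 1 lower, and 3 erythroid markers higher and 0 lower. It called 2 of 10 granulocyte markers higher and 4 lower, beside 39.6% of all genes. The part of such cells in the *Ace* difference was not tested. *Atp6ap2* went the other way, at 21.6 ± 6.88 CPM in LT-HSC and 32.2 ± 9.73 in HPC-1, a ratio of 0.672 (0.628 without the pair that stood apart).

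This difference was tested with the quasi-likelihood test of edgeR and adjusted by Benjamini-Hochberg over 18013 genes, of which 6435 (35.7%) were called at an adjusted p under 0.05. Of the 9 members, 4 passed the filter on low counts, and 1 was called. This was *Atp6ap2*, at −0.78 on the log2 scale (SE 0.147, edgeR adjusted p = 3.42e-05). The fit could estimate 2 of the 4, so the members' share is not set against that of all genes. The call of *Atp6ap2* rested on all genotypes being included: with *Il27ra*+/- and *Il27ra*-/- libraries alone, the log2 fold change was −0.35 with an edgeR adjusted p of 0.0569, the highest over 45 alternatives (7.63e-06 to 0.0569). *Lnpep* had −0.08 (SE 0.082, adjusted p = 0.527 by edgeR). For *Agtr1a* and *Ace*, this fit gave no usable estimate (unadjusted p = 1). Both have groups with 0 counts in every library, where the log level is undefined. *Enpep* also has such groups, yet was called without the filter on low counts (2.97, SE 0.84, adjusted p = 0.0031 by edgeR), so whether they are the reason was not tested. Of 5474 genes tested that have such a group, 3378 had an unadjusted p over 0.9 and 695 were called by edgeR. A model with cell type as an additive term, chosen after seeing the data, called 7128 of 18013 genes (39.6%), 3659 higher and 3469 lower in LT-HSC, and 3 of the 4 members. There the log2 fold change of *Agtr1a* was 3.84 (SE 0.722, edgeR adjusted p = 2.9e-05). *Ace* had 3.69 (SE 0.865, adjusted p = 0.000525 by edgeR) and *Atp6ap2* −0.59 (SE 0.148, adjusted p = 0.00119). Without the pair of libraries that stood apart, these became 3.95 for *Agtr1a*, 3.08 for *Ace* and −0.65 for *Atp6ap2*, with all 3 called. Without the pair highest in *Ace*, its log2 fold change was 2.69, with an edgeR adjusted p of 0.0207, and that of *Agtr1a* was 3.86. *Agtr1a* and *Ace* passed the filter on low counts through their LT-HSC libraries, as neither passed it among HPC-1 libraries alone. Their higher level in LT-HSC was thus a condition of being tested. Their calls, here and in the alternatives, are descriptions, and the share of members called is not read as a result. DESeq2 called *Agtr1a*, *Enpep* and *Atp6ap2*, and gave *Enpep* 2.81 (SE 0.9, adjusted p = 0.00602) and *Ace* an adjusted p of 0.0986.

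Members the fit could not estimate were compared by 2-sided permutation tests of mean CPM, which are unadjusted over the 18 tests made and were chosen after seeing the data. They shuffled the libraries of a comparison freely, as if separate, with no regard to genotype or replicate number, nor to agent between cell types. Between LT-HSC and HPC-1, p was 6e-05 for *Agtr1a*, 0.00052 for *Enpep* and 0.0006 for *Ace* (permutation test). Leaving out any 1 of the 36 libraries kept the permutation p of these 3 genes at or below 0.00172. For *Agtr2*, which was higher in HPC-1 (0.399 ± 0.849 against 0.0283 ± 0.0833 CPM), the permutation p was 0.0571. *Mas1*, *Agt* and *Agtr1b* gave permutation p of 0.117, 0.191 and 0.456, and no difference was detectable at this depth.

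Whether Ang II infusion moved these genes was asked within each cell type. In LT-HSC, Ang II was compared with PBS over *Il27ra*+/- and *Il27ra*-/-, because the *Il27ra*-intact PBS group is 1 library. edgeR called 0 of 16365 genes (0%; 463 at an unadjusted p under 0.05, 0 by DESeq2) and so 0 of 4 members. The log2 fold changes were 0.29 for *Agtr1a* (SE 0.923), −0.76 for *Ace* (SE 1.13), −0.09 for *Lnpep* (SE 0.129) and −0.23 for *Atp6ap2* (SE 0.191), all with an edgeR adjusted p of 1. Without PBS *Il27ra*-/- replicate 2 these estimates were −0.03, −1, −0.11 and −0.14, and without Ang II *Il27ra*-/- replicate 2 they were 0.19, −2.32, −0.13 and −0.3, again with an edgeR adjusted p of 1. The errors differ widely: for *Lnpep* the measurement was tight, whereas for *Agtr1a* and *Ace* even changes of several-fold could not have been seen. Within genotypes, 0% of genes were called in *Il27ra*+/- (806 at an unadjusted p under 0.05, 0 by DESeq2) and 0% in *Il27ra*-/- LT-HSC (150, and 1 by DESeq2). *Agtr1a* had −0.26 (SE 1.281) in *Il27ra*+/- and 0.84 (SE 1.339) in *Il27ra*-/- LT-HSC, and the difference between these responses was 1.1 (SE 1.845, adjusted p = 1 by edgeR, with 0% of genes called, 414 at an unadjusted p under 0.05 and 0 by DESeq2).

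Among members too low for the fit, *Agtr1b* had 0 counts in 8 Ang II libraries of *Il27ra*+/- and *Il27ra*-/- LT-HSC and a mean of 0.517 ± 0.96 CPM in 6 PBS libraries (exact permutation p = 0.03, unadjusted). *Mas1* averaged 0.0603 ± 0.113 CPM after Ang II and 0.561 ± 0.516 after PBS (exact permutation p = 0.0306, unadjusted). Neither held when single PBS libraries were left out: the exact permutation p of *Agtr1b* rose to at most 0.0699, and passed 0.05 without replicate 2 or 3 of *Il27ra*+/- or replicate 2 or 3 of *Il27ra*-/-. That of *Mas1* rose to at most 0.0715 and passed 0.05 without replicate 1 or 2 of *Il27ra*+/- or replicate 1 of *Il27ra*-/-. PBS *Il27ra*+/- replicate 2, highest in both genes, had 3 of 10 hepatocyte markers at 0, against 6 to 9 in the other LT-HSC libraries. It had 6 of 24 intestinal epithelium markers at 0, against 12 to 20 in the others of these 2 genotypes. The part of such cells in either difference was not tested. *Agt*, *Enpep* and *Agtr2* gave exact permutation p of 0.11, 0.294 and 0.33.

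In HPC-1, Ang II against PBS over the 3 genotypes gave 0 of 13199 genes by edgeR (0%; 424 at an unadjusted p under 0.05, 0 by DESeq2), and 0 of the 2 members that passed the filter. *Lnpep* had a log2 fold change of 0.06 (SE 0.102) and *Atp6ap2* −0.01 (SE 0.186), both with an edgeR adjusted p of 1. *Agtr2* averaged 0.912 ± 1.15 CPM in 8 PBS libraries and 0.0264 ± 0.0875 in 11 Ang II libraries, that is 26 counts against 1. The exact permutation p was 0.00963, unadjusted over 18 tests, and stayed between 0.0049 and 0.0229 when each of the 19 libraries was left out. The PBS counts came from 5 of 8 libraries, all *Il27ra*+/- or *Il27ra*-/-, and those of *Il27ra*-intact were at 0 under both agents. In both of these PBS genotypes the counts were lowest in replicate 1 and highest in replicate 2, whereas the permutation test treats all libraries as separate. DESeq2, which fits this gene, put its log2 fold change at −2.67 (SE 1.85, adjusted p = 1), so the difference passed only the unadjusted test. Granulocyte marker sums also differed, at 2430 to 2750 CPM in PBS *Il27ra*+/- replicates 1 and 2 and *Il27ra*-/- replicates 1 and 2 and at 3810 to 7270 in the other 15 HPC-1 libraries (10 of 10 markers found, *Mpo* highest; 7 of 10 at an unadjusted p under 0.05 by edgeR and 0 called). Monocyte and macrophage marker sums were 60.3 to 77.7 CPM in the same 4 libraries and 113 to 278 in the other 15 (10 of 10 markers found, *Csf1r* highest; 1 of 6 tested at an unadjusted p under 0.05 by edgeR and 0 called). Erythroid marker sums ran from 10.6 to 198 CPM after PBS (median 42.4) and from 31.2 to 604 after Ang II (median 195; 9 of 9 markers found, *Hba-a2* highest), with 6 of 9 markers at an unadjusted p under 0.05 by edgeR and 0 called. Intestinal epithelium marker sums were 94.0 and 86.2 CPM in replicate 2 of PBS *Il27ra*+/- and *Il27ra*-/-, the libraries highest in *Agtr2*. They were 29.2 to 67.4 CPM in the other HPC-1 libraries of these genotypes and 91.7 to 336 in *Il27ra*-intact, where *Agtr2* was at 0. Of 12 such markers tested, 2 had an unadjusted p under 0.05 by edgeR and 0 were called. The part of any of these marker differences in the *Agtr2* difference was not tested. For *Ace*, *Enpep*, *Agtr1a*, *Agtr1b* and *Mas1* in HPC-1, exact permutation p ranged from 0.301 to 1.

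By genotype, Ang II against PBS in HPC-1 gave 0% of genes in *Il27ra*-intact (420 at an unadjusted p under 0.05 by edgeR, 1 by DESeq2), 0% in *Il27ra*+/- (519, and 3 by DESeq2) and 0% in *Il27ra*-/- (244, and 1 by DESeq2). *Atp6ap2* had log2 fold changes of −0.11 (SE 0.362), −0.42 (SE 0.304) and 0.5 (SE 0.303) in these genotypes. The last minus the first was 0.61 (SE 0.47, adjusted p = 1 by edgeR, with 0% of genes called, 451 at an unadjusted p under 0.05 and 0 by DESeq2). The response of *Atp6ap2* in LT-HSC minus that in HPC-1, over *Il27ra*+/- and *Il27ra*-/-, was −0.27 (SE 0.291) and that of *Lnpep* −0.15 (SE 0.173); no estimate is given for *Agtr1a*, which had 0 counts in all 4 Ang II *Il27ra*+/- libraries of HPC-1. edgeR called 0% of genes for this difference (511 at an unadjusted p under 0.05, 0 by DESeq2).

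Genotypes were compared within an agent to ask what IL-27R deficiency moves. After Ang II, edgeR called 277 of 16365 genes (1.69%) between *Il27ra*-/- and *Il27ra*-intact LT-HSC and 136 (0.831%) between *Il27ra*+/- and *Il27ra*-intact, and 0 of 4 members in both. These comparisons share the same 2 *Il27ra*-intact libraries. *Atp6ap2* came nearest, with log2 fold changes of 1.08 in *Il27ra*-/- (SE 0.338, adjusted p = 0.105 by edgeR) and 0.74 in *Il27ra*+/- (SE 0.335, adjusted p = 0.295), and all 8 libraries lay above both *Il27ra*-intact libraries. Over 14 alternatives its adjusted p for *Il27ra*-/- ranged from 0.0615 with DESeq2 to 0.241. *Agtr1a* had 8 to 13 counts in the 4 *Il27ra*-/- libraries and 0 in both *Il27ra*-intact libraries (adjusted p = 0.253 by edgeR). *Ace* was likewise at 0 in both *Il27ra*-intact libraries, and in 2 of 4 *Il27ra*-/- libraries (adjusted p = 0.391 by edgeR). *Lnpep* had 0.09 (SE 0.208, adjusted p = 0.831 by edgeR). The *Il27ra*-intact libraries were also shallower, at 2077699 and 2244419 counts against 2320769 to 6618618 in *Il27ra*-/-. Of 14 intestinal epithelium markers tested, edgeR called 10 lower in *Il27ra*-/- and 9 lower in *Il27ra*+/- than in *Il27ra*-intact LT-HSC. The part of such cells or of depth in the members' values was not tested.

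Between *Il27ra*-/- and *Il27ra*+/- LT-HSC, 0% of genes were called by edgeR after Ang II (426 at an unadjusted p under 0.05, 2 by DESeq2) and 0% after PBS (653, and 0 by DESeq2). *Ace* had the largest of the 4 members' estimates there, 2.02 after PBS (SE 1.712, adjusted p = 0.982 by edgeR). Its *Il27ra*-/- libraries had 2.97, 1.04 and, with 63 counts in replicate 3, 9.12 CPM, against 0, 1.54 and 1.39 in *Il27ra*+/-. In HPC-1 after PBS, 2 of 13199 genes (0.0152%) were called between *Il27ra*-/- and *Il27ra*-intact, and 0% between *Il27ra*-/- and *Il27ra*+/- (151 at an unadjusted p under 0.05, 0 by DESeq2), with 0 of 2 members in both. After Ang II, 0% of HPC-1 genes were called between *Il27ra*-/- and *Il27ra*-intact (661 at an unadjusted p under 0.05, 0 by DESeq2) and 0% between *Il27ra*-/- and *Il27ra*+/- (375, and 0 by DESeq2). *Atp6ap2* averaged 42.1 ± 12.3 CPM in Ang II *Il27ra*-/- and 23.0 ± 8.63 in Ang II *Il27ra*+/- HPC-1 (n = 4 each), a log2 fold change of 0.85 (SE 0.283) with an edgeR adjusted p of 1. The groups overlapped through *Il27ra*-/- replicate 4 at 24.66 CPM.

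A list of 17 other genes, 16 enzymes and receptors of the system or of its peptides and the V-ATPase accessory subunit *Atp6ap1*, gave 2 genes higher and 7 lower in LT-HSC, *Atp6ap1* among the latter, of 13 tested, beside 35.7% called over all genes (median log2 fold change −0.38, against −0.01 over all genes). Renin itself, *Ren1*, had 1 count in 36 libraries. *Anpep*, aminopeptidase N, which shortens angiotensin III, differed by 2.48 on the log2 scale (SE 0.339, edgeR adjusted p = 1.64e-07), with 9.8 ± 3.98 CPM in LT-HSC and 1.6 ± 0.935 in HPC-1. *Prcp*, a carboxypeptidase that acts on Ang II, had 0.47 (SE 0.109, adjusted p = 0.000619 by edgeR). Lower in LT-HSC were *Rnpep*, aminopeptidase B (−1.29, SE 0.15, adjusted p = 6.48e-09 by edgeR), the mast cell carboxypeptidase *Cpa3* (−4.09, SE 0.5, adjusted p = 3.17e-07) and *Ctsg*, cathepsin G, an enzyme of myeloid granules able to form Ang II (−8.76, SE 1.196, adjusted p = 2.42e-06). The size for *Ctsg* is uncertain, as it had 0 counts in every LT-HSC library labelled *Il27ra*-intact, and the additive model gave −5.64 (SE 0.876, adjusted p = 4.53e-06 by edgeR). By mean CPM over the 36 libraries *Ctsg* was the most abundant of the list, at 137 with the next gene at 136, and this came from HPC-1, with 248 ± 109 CPM, while LT-HSC had a median of 0 and a highest value of 161.7. In LT-HSC its counts were over the limit in 4 of 17 libraries. *Ctsg* and *Cpa3* also belong to the granulocyte and mast cell marker lists used here. Of the granulocyte markers 4 of 10 tested, and of the mast cell markers 3 of 4 tested, were called lower in LT-HSC and 0 higher by edgeR, beside the same 35.7%. Of 8 mast cell markers, 1 passed the filter on low counts among LT-HSC libraries alone and 3 among HPC-1 libraries alone. For some of them a higher level in HPC-1 was thus a condition of being tested, and the mast cell calls are descriptions. The part of granulocytes and mast cells in the *Ctsg* and *Cpa3* differences was not tested.

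Of 38 genes of type 1 receptor signaling, 37 were tested, and 11 were higher and 13 lower in LT-HSC (median log2 fold change −0.1), beside 2968 higher and 3467 lower of 18013 genes (35.7%). Higher were *Plcb1*, a phospholipase C downstream of Gq (2.33, SE 0.27, adjusted p = 5.6e-09 by edgeR), the protein kinase C *Prkca* (1.58, SE 0.167, adjusted p = 9.26e-09) and *Jak2* (0.69, SE 0.096, adjusted p = 2.31e-07). Lower were *Rgs2*, which turns off Gq (−1.79, SE 0.24, adjusted p = 4.8e-07 by edgeR), the shedding protease *Adam17* (−0.76, SE 0.109, adjusted p = 4.57e-07) and *Prkcd* (−0.77, SE 0.12, adjusted p = 2.47e-06). *Plcb2* had the highest mean over the 36 libraries, at 381 ± 74.0 CPM in LT-HSC and 256 ± 50.3 in HPC-1, where other genes of the list were higher. Among 9 vesicle partners of the *Lnpep* product, 2 were higher and 0 lower by edgeR, beside the same 35.7% of all genes (2 at an unadjusted p under 0.05): *Tbc1d4* (0.59, SE 0.126, adjusted p = 0.000218) and *Vamp2* (0.45, SE 0.13, adjusted p = 0.00525), with a median of 0.03 and *Rab10* most abundant at 129 CPM. Among 15 V-ATPase subunits, not counting *Atp6ap1*, partners of the *Atp6ap2* product, 3 were lower and 0 higher by edgeR, again beside 35.7% (5 at an unadjusted p under 0.05), with a median of −0.13. These were *Tcirg1*, the most abundant at 73.6 CPM (−0.65, SE 0.14, adjusted p = 0.000295 by edgeR), *Atp6v0e* (−0.47, SE 0.125, adjusted p = 0.00219) and *Atp6v0c* (−0.3, SE 0.114, adjusted p = 0.0338). *Atp6v0e* was not called without the library labelled PBS *Il27ra*-intact LT-HSC, with the replicate block, with *Il27ra*+/- and *Il27ra*-/- libraries alone or in the additive model. Over 45 alternatives its log2 fold change ranged from −0.52 to −0.12 and its edgeR or DESeq2 adjusted p from 0.000944 to 0.501. *Atp6v0c* was called in 21 of 45 (adjusted p 0.00518 to 0.444). The additive model called 1 of the 15 lower, *Tcirg1*, and 1 higher, *Atp6v1a* (0.31, SE 0.104, adjusted p = 0.0139 by edgeR), beside 39.6% of all genes. Ang II against PBS gave 0 calls by edgeR in these 4 lists in LT-HSC, with 0 of 13, 2 of 37, 0 of 8 and 0 of 15 genes at an unadjusted p under 0.05, and 0 calls in HPC-1, with 1 of 11, 2 of 35, 0 of 8 and 2 of 15. After Ang II, 1 gene of the 73 tested in these lists, beside 1.69% of all genes, was called between deficient and intact LT-HSC, *Mapk3*, a kinase downstream of the receptor (1.11, SE 0.259, adjusted p = 0.0368 by edgeR), in 7 of 14 alternatives (adjusted p 0.00614 to 0.197) and not with the replicate block, the Y-linked expression covariate or the compared groups alone, nor without *Il27ra*-intact replicate 2 or *Il27ra*-/- replicate 2, 3 or 4. In the same comparison 10 of 14 intestinal epithelium markers tested were called lower in deficient LT-HSC, and their part in the *Mapk3* difference was not tested.

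The genes whose levels ran most like those of *Atp6ap2* over the 36 libraries were *Rrm2* (Pearson r of log2 CPM 0.783), *Uqcr10* (0.779) and *Ube2d3* (0.779), out of 11662 genes. For *Lnpep*, they were *Stk38* (0.681), *Tfb2m* (0.675) and 9930021J03Rik (0.675). These are descriptions over libraries that share cell type and depth.

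The promoters of the members, taken from RefSeq on GRCm38.p6 as 250 bases before to 50 after the gene start, differed in CG content. Of the 9 members 8 matched an entry, and *Agtr1a* had none. CG dinucleotides were counted because promoters rich in them usually serve broadly expressed genes, and over 32851 promoters the median was 7. *Lnpep* and *Atp6ap2*, found in every library, had 30 and 24, more than 88.3% and 80.0% of promoters. *Agt*, *Agtr1b*, *Agtr2*, *Enpep* and *Mas1* had 1, 5, 5, 7 and 2. *Ace*, at or below 3 counts in 28 libraries, has an upstream entry with 29, more than *Atp6ap2*, so CG content did not follow detection in every member, and an internal one with 2, the latter next to the known start of its testis form, and the count table does not separate their transcripts. TATAAA, searched on both strands, occurred in 13.6% of all promoters and in those of *Agt*, *Agtr1b* and *Enpep* and the upstream one of *Ace*. The sequences of both abundant members, of both *Ace* starts and of *Agtr2* follow, with CG in capitals, to show the range; a match of letters is a description and not a site.
Lnpep, chr17:17624440-17624739, minus strand: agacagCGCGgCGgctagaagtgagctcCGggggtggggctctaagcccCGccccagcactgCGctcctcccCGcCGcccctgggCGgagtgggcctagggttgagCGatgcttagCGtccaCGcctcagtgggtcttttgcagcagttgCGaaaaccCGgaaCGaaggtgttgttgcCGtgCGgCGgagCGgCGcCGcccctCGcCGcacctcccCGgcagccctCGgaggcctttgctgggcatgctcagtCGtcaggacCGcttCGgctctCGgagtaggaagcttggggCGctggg
Atp6ap2, chrX:12587509-12587808, plus strand: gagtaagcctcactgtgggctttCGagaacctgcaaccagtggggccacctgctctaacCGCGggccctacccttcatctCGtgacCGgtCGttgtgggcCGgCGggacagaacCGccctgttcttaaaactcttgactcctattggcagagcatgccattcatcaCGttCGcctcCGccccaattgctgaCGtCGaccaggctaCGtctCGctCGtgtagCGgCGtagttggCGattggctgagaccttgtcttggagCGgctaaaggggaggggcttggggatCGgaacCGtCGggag
Ace upstream, chr11:105967698-105967997, plus strand: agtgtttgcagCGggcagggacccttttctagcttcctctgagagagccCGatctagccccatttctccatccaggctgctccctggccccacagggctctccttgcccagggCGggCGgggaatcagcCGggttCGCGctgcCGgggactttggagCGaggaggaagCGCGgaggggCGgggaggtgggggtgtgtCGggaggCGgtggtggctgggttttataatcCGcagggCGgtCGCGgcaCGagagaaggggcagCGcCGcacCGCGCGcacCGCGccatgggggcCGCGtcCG
Ace internal, chr11:105974939-105975238, plus strand: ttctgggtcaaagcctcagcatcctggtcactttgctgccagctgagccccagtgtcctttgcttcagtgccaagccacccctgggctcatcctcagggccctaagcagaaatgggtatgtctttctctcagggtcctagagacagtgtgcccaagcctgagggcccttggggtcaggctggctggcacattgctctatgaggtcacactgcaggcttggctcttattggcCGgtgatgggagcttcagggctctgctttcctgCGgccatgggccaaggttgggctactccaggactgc
Agtr2, chrX:21484374-21484673, plus strand: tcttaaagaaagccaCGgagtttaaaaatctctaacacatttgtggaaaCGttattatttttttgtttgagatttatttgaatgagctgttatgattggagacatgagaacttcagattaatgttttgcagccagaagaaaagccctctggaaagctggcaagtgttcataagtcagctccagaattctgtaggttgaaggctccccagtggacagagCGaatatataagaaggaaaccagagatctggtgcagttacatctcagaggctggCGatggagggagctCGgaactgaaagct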

How the data were processed

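Expression was measured by total RNA sequencing of 36 sorted samples (17 of LT-HSC, 19 of HPC-1) in 12 groups. The authors prepared stranded low-input libraries and sequenced paired-end reads. They aligned these to mm10 and estimated gene levels with RSEM; the submitters' processing notes name Bowtie2 and RSEM 1.2.31, and the paper names STAR and an older RSEM version. The deposited values are expected counts in whole numbers (0 were not whole), not normalized, so rounding changed nothing. The Ensembl release and the use of strand in counting are not given in the sources used here. Symbols were found for 37570 identifiers, which hold 99.63% of the counts, and positions and exon lengths came from GENCODE vM21.

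Counts were normalized by TMM and tested in R 4.3.3 with edgeR 4.0.16 (filterByExpr, robust quasi-likelihood test, Benjamini-Hochberg adjustment over all genes tested, called under 0.05). The 6 groups of a cell type shared 1 model, and a model of all 12 groups served comparisons between cell types. The study's gender factor was not fitted, as the labels give no gender. Members and lists were chosen with earlier results of these data known, and 1 gene of the lists is not reported here. Named genes are the 9 members; of each pathway list, the most abundant gene and up to 3 called genes per direction with the smallest adjusted p; of each marker list, the most abundant gene; and the 3 genes most like an abundant member (log2 CPM, prior count 2, median of at least 10 counts). Alternatives were DESeq2 1.42.0, upper-quartile normalization, other filters on low counts, no robust option, the compared groups alone, a Y-linked expression covariate, a replicate block, and omission of single libraries. The additive model, its fits without both libraries that stood apart or both highest in *Ace*, and the permutation tests (scipy 1.17.1) were chosen after seeing the data. The code was tested on simulated counts. No library was dropped.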

Additional observations from a re-analysis of the deposited data

Results flagged for a closer look

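In groups of 4 or more libraries, 22 sets of values of a member in a group were examined for a library far from the rest of its group, and 5 held one; chance gives about 1 in 20, a rate that need not hold where the rest of a group is at 0. In Ang II *Il27ra*-/- LT-HSC, *Ace* stood at 6.83 CPM (16 counts) in replicate 2, with 0.73, 0 and 0 CPM in the others. The other 4 lay in Ang II *Il27ra*-/- HPC-1 and were 1 or 2 counts beside libraries at 0, all under the limit of detection. These were *Ace* at 0.39 CPM in replicate 4, *Enpep* at 0.29 CPM in replicate 1, *Agtr1b* at 0.29 CPM in replicate 3 and *Agtr2* at 0.29 CPM in the same replicate.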

How the results depend on the processing

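For LT-HSC against HPC-1, the model with equal weights for all groups called 1 of the 9 genes, beside 35.7% of all genes tested. DESeq2 called 3 (*Agtr1a*, *Atp6ap2*, *Enpep*), the fit with no filter on low counts 2 (*Atp6ap2*, *Enpep*), the replicate block 3 (*Ace*, *Agtr1a*, *Atp6ap2*), and the fit on heterozygous and deficient genotypes alone 2 (*Ace*, *Agtr1a*). Omitting single libraries gave 1 each time. The cause of these shifts was not tested. The shares of all genes called in these alternatives are not given here, so the counts of members are descriptions and not results about the members. *Agtr1a* and *Ace* passed the filter on low counts through their LT-HSC libraries, as stated above. The additive model, chosen after seeing the data, called 3, beside 39.6% of all genes tested. In 38 of 38 alternatives it called the same number, with *Agtr1a* between 3.69 and 4.11 and *Ace* between 2.69 and 4.08 on the log2 scale. The other 18 comparisons called 0 members by edgeR and DESeq2 in every alternative run. Replicate numbers were taken as shared labels only, since not every pair of same-numbered libraries correlated over 0.1: 9 of 16 between cell types (−0.271 to 0.4), 12 of 27 within LT-HSC (−0.247 to 0.443) and 9 of 41 within HPC-1 (−0.168 to 0.517). All 3 pairs did so between PBS *Il27ra*+/- and PBS *Il27ra*-/- HPC-1 (0.13, 0.138 and 0.517), where the replicate block called 0 genes, as did the main fit. They also did between Ang II *Il27ra*-/- and PBS *Il27ra*+/- LT-HSC (0.109, 0.122 and 0.132), groups that were not compared with each other. Between *Il27ra*+/- and *Il27ra*-/- after PBS, the highest pair was replicate 3, at 0.374 in LT-HSC and 0.517 in HPC-1. After Ang II it was replicate 3 in LT-HSC (0.443) and replicate 4 in HPC-1 (0.481). Other pairs of these genotypes under the same agent ranged from −0.082 to 0.198. The main fits treat these libraries as separate, so their p-values do not allow for what such pairs share. The comparison of the compared groups alone was not run between cell types, since it holds the same libraries. With 7 of 9 genes at or below 3 counts in 25 or more of 36 libraries, depth limits what can be said of *Agt*, *Agtr1b*, *Agtr2* and *Mas1* at all, and of Ang II or genotype effects on *Agtr1a*, *Ace* and *Enpep*.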
